A study of Sus scrofa with 36 samples.

Results

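The nuclear genes of complex III, complex IV and ATP synthase were followed in the newborn pig heart after myocardial infarction. They were chosen by name: every row of the count table whose pig gene symbol is CYC1 or begins with UQCR, COX4I, COX5, COX6, COX7, COX8 or ATP5, with rows on the mitochondrial chromosome left out. This gave 31 genes of the 25880 rows, 14857 of which have a symbol. Of the 31, 7 belong to complex III, 13 to complex IV and 11 to ATP synthase. The rule uses no measured value. Subunits that no symbol matched are not analysed here.

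Complex III takes electrons from ubiquinol and passes them to cytochrome c, complex IV (cytochrome c oxidase) passes them on to oxygen, and both move protons across the inner mitochondrial membrane. ATP synthase lets the protons flow back through a rotating ring of c subunits and makes ATP in its F1 head. A few core proteins of these complexes are encoded in the mitochondrial genome, and the nucleus encodes the rest. Heart muscle is rich in mitochondria, and several complex IV subunits exist in a muscle isoform and a general isoform that differ in tissue and developmental stage.

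The pigs were Yorkshire-landrace swine. In 12 of them branches of the left anterior descending and circumflex coronary arteries were tied off for good, and 12 had sham surgery. Each infarcted heart was sampled in its infarct zone (IZ) and at its border (border zone, BZ), and each sham heart in the anterior wall of the left ventricle (Sham), with 1 RNA library per sample and 12 groups of 3 libraries. Pigs labelled Young were operated on when 2 days old and those labelled Old when 14 days old. Harvest followed after 1 day in the Early groups and after 7 days in the Late groups. The pigs were therefore 3 days old at harvest in Young Early, 9 in Young Late, 15 in Old Early and 21 in Old Late. All animals received ketoprofen and enrofloxacin after surgery, and the labels give no sex. The study asked how the heart responds to infarction in the first weeks of life.

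Library totals ran from 8.1 to 39.8 M counts (M, mega), with a median of 22.55 M. RNA integrity numbers lay between 6.3 and 8.4. All 31 genes passed the filter on low counts. COX6B2, known in mammals as the testis isoform of subunit 6B, had 6 to 81 counts per library, and every other member had at least 164. Levels are CPM, counts scaled to a common library size after TMM, and changes are log2 fold changes with the SE (standard error) from the quasi-likelihood model of edgeR, for groups of n = 3. A gene is said to rise, fall or change where its Benjamini-Hochberg adjusted p over all 14537 genes was under 0.05. The libraries are bulk tissue, so fewer cardiomyocytes and less RNA of these genes per cardiomyocyte cannot be told apart.

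One library stood apart. Young Early BZ replicate 2 had the highest total, and the 31 genes took 3.53% of its counts, against 0.76% to 2.31% in the other 35 libraries. Its summed level over the 31 genes was 61010 CPM, against 19156 and 18781 CPM in the other Young Early BZ libraries. COX4I1, the general isoform of subunit 4, stood at 1750, 11585 and 1425 CPM in the Young Early BZ libraries, and the core subunit gene UQCRC2 at 425, 249.9 and 460.4 CPM. The second of these libraries was thus the highest for COX4I1 and the lowest for UQCRC2. The IZ library of the same pig, Young Early IZ replicate 2, was also the highest of its group in summed level. Because all groups share 1 estimate of the spread, counts of called genes are also given from a fit without this BZ library, chosen after seeing the data.

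Summed over the 31 genes, the level in the infarct zone lay below sham at 3, 15 and 21 days of age and overlapped it at 9 days. The sums were 9543, 16579 and 8419 CPM in Young Early IZ, against 27937, 30581 and 25790 CPM in Young Early Sham. They were 12947, 17812 and 16206 CPM in Young Late IZ, against 20076, 14018 and 16732 CPM in Young Late Sham. Both Old times showed a gap between IZ and sham libraries. Old Early IZ had 9238, 8952 and 6602 CPM, against 16458, 17566 and 13945 CPM in Old Early Sham. Old Late IZ had 7258, 5211 and 4590 CPM, against 14100, 13955 and 13803 CPM in Old Late Sham, where the 3 sham libraries were nearly equal.

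**Figure D1:**
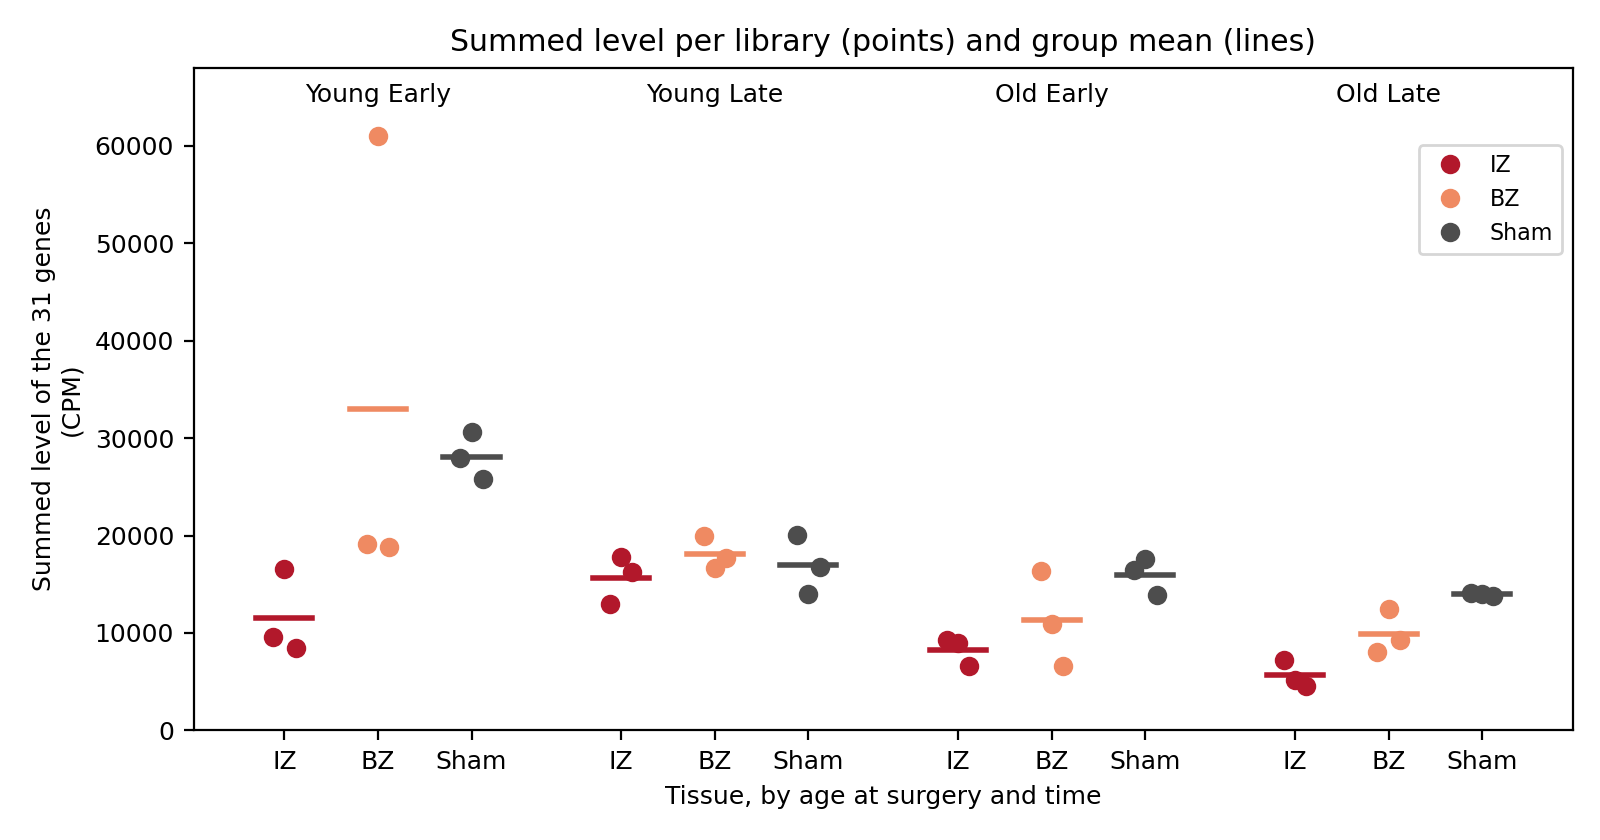
Summed level of the 31 genes in each library (points, CPM) and the mean of each group (lines), by tissue within each age at surgery and time. IZ libraries lie below all sham libraries in Young Early, Old Early and Old Late but not in Young Late, and Young Early BZ replicate 2 stands alone at 61010 CPM.

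One day after an infarct at 2 days of age, genes of all 3 complexes were lower in the infarct zone. Of the 31 genes, 24 fell and 0 rose in Young Early IZ, where 26.4% of all genes tested were called in either direction and 11.6% were called lower. The members' median change was −1.27, against 0.08 over all genes tested. In complex III 6 of 7 genes fell, in complex IV 8 of 13 and in ATP synthase 10 of 11. In 27 members all 3 IZ libraries lay below all 3 sham libraries, which held for 20.7% of all genes.

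In complex III, CYC1, the cytochrome c1 subunit that hands electrons to cytochrome c, stood at 404, 765 and 369 CPM in Young Early IZ, against 1568, 1546 and 1339 CPM in Young Early Sham. It fell by 1.53 ± 0.38 (adjusted p = 0.00401). The small subunit genes UQCR10 and UQCRQ fell by 1.61 ± 0.41 and 1.58 ± 0.34. UQCR10 had 133, 282 and 118 CPM in Young Early IZ, against 558, 592 and 475 CPM in Young Early Sham, and the highest IZ library, replicate 2, lay well under the lowest sham library. UQCRFS1, the Rieske iron-sulphur subunit, had 320.0, 379.9 and 307 CPM in Young Early IZ, against 630.5, 806 and 564 CPM in Young Early Sham, and fell by 0.99 ± 0.22. The core subunit genes UQCRC1 and UQCRC2 fell by 1.09 ± 0.29 and 0.71 ± 0.24, and the UQCRC2 call ended with no count filter (edgeR, adjusted p = 0.0531).

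In complex IV the largest fall was that of COX6A2, the heart and skeletal muscle isoform of subunit 6A. It had 206, 556 and 166 CPM in Young Early IZ, against 972, 968 and 1183 CPM in Young Early Sham, and fell by 1.75 ± 0.54 (adjusted p = 0.0175). Replicate 2 of IZ was the highest of the 3, and all 3 lay below sham. COX5A and COX5B, nuclear subunits that sit on the catalytic core, fell by 1.29 ± 0.30 and 1.15 ± 0.39, and the COX5B call ended with RNA integrity as a covariate (edgeR, adjusted p = 0.0568). The general isoform COX6A1 had 88.7, 138 and 96.7 CPM in Young Early IZ, against 131, 132 and 105 CPM in Young Early Sham, and did not pass (−0.19 ± 0.28). COX7A2L, known from mice to help join complexes III and IV into supercomplexes, had 63.8, 63.2 and 62.5 CPM in Young Early IZ, against 62.4, 68.7 and 53.2 CPM in Young Early Sham, and did not pass (0.04 ± 0.14). In both genes the groups overlapped.

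Other complex IV genes of Young Early IZ showed the same gap. COX7A1 had 184, 321 and 130.0 CPM in Young Early IZ, against 610.5, 540.0 and 662 CPM in Young Early Sham. COX5B had 484, 1114 and 386 CPM in Young Early IZ, against 1406, 1503 and 1501 CPM in Young Early Sham. In both, as in UQCRC1 and UQCRC2, every IZ library lay below every sham library. UQCRC1 had 512, 795 and 438 CPM in Young Early IZ, against 1282, 1358 and 1074 CPM in Young Early Sham, and UQCRC2 had 225, 168 and 220.1 CPM in Young Early IZ, against 306, 427 and 268 CPM in Young Early Sham. COX4I1 had 860.1, 2097 and 667 CPM in Young Early IZ, against 3281, 3010 and 2942 CPM in Young Early Sham, which did not pass in spite of the gap (−1.35 ± 0.51, adjusted p = 0.0517). Here replicate 2 of IZ was well above the other IZ libraries. COX4I2 had 10.9, 24.3 and 12.1 CPM in Young Early IZ, against 24.0, 22.3 and 33.0 CPM in Young Early Sham, with overlap (−0.75 ± 0.47).

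In ATP synthase, ATP5MC1, one of the genes for the c subunit of the rotor ring, had 334, 959.9 and 299.6 CPM in Young Early IZ, against 1589, 1873 and 1437 CPM in Young Early Sham. It fell by 1.62 ± 0.50 (adjusted p = 0.0187). ATP5F1A, the alpha subunit of the F1 head, had 1533, 1975 and 1384 CPM in Young Early IZ, against 3781, 4493 and 3111 CPM in Young Early Sham, and fell by 1.22 ± 0.26. ATP5IF1, which inhibits ATP hydrolysis by the F1 head, fell by 1.23 ± 0.32 at 192, 299.6 and 176 CPM in Young Early IZ, against 508, 567 and 487 CPM in Young Early Sham. ATP5ME did not pass (−1.45 ± 0.55). Leaving out Young Early IZ replicate 1, 2 or 3 gave 15, 27 or 13 lower genes in place of 24. It was 27 without the BZ library that stood apart.

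One week after an infarct at 2 days of age, few of these genes differed from sham. In Young Late IZ 2 of the 31 rose and 1 fell, where 30.4% of all genes were called, 17.3% higher and 13.1% lower. The members' median change was −0.08. COX6A1 had 188, 240.5 and 213 CPM in Young Late IZ, against 86.1, 69.5 and 107 CPM in Young Late Sham, and rose by 1.29 ± 0.29 (adjusted p = 0.0013). COX7A2L had 66.9, 65.4 and 65.4 CPM in Young Late IZ, against 61.9, 41.5 and 48.5 CPM in Young Late Sham, and rose by 0.38 ± 0.14. UQCRC2 had 187, 219.9 and 222 CPM in Young Late IZ, against 369, 345 and 360.2 CPM in Young Late Sham, and fell by 0.77 ± 0.24. In these 3 genes the IZ and sham libraries did not overlap.

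The COX6A1 call held without each of the 6 libraries in turn, while COX7A2L kept its call in 1 of the 6 refits and UQCRC2 in 5. ATP5F1A stood at 1836, 2059 and 1815 CPM in Young Late IZ, against 2512, 1503 and 2038 CPM in Young Late Sham, with the sham libraries on both sides of the IZ libraries. Its change was −0.08 ± 0.26. CYC1 showed the same overlap, with 632, 847 and 756 CPM in Young Late IZ, against 1078, 688 and 890.1 CPM in Young Late Sham. A miss of the threshold does not show equal levels. The sham libraries spread widely here, and replicate 2, with the lowest total of all libraries (8.1 M), was often the lowest of them. These groups mix library preparation batches 1 and 2. With batch as a term 1 gene rose and 1 fell, as COX7A2L had the same change of 0.38 at an adjusted p of 0.0508 by edgeR. The COX7A2L call also ended with DESeq2 size factors, with no count filter, without mitochondrially encoded genes and in a fit of the 6 libraries alone, at adjusted p-values of 0.0515 to 0.159.

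The muscle isoforms had negative changes in Young Late IZ without passing, and that of COX7A1 was the lowest of the 31. COX7A1 had 215, 335 and 289.8 CPM in Young Late IZ, against 565, 513 and 369 CPM in Young Late Sham, with no overlap (−0.78 ± 0.45). COX6A2 had 234, 458 and 419 CPM in Young Late IZ, against 751, 392 and 643 CPM in Young Late Sham, with overlap (−0.69 ± 0.53). COX4I1 and COX5B also overlapped sham. COX4I1 had 1183, 1762 and 1664 CPM in Young Late IZ, against 2155, 1566 and 1758 CPM in Young Late Sham. COX5B had 617, 1018 and 888 CPM in Young Late IZ, against 1044, 800.3 and 827 CPM in Young Late Sham. COX4I2 had 28.4, 27.8 and 22.4 CPM in Young Late IZ, against 20.4, 21.9 and 17.7 CPM in Young Late Sham. All its IZ libraries lay above sham, at a change of 0.39 ± 0.47 that did not pass. In ATP synthase both genes below overlapped. ATP5IF1 had 310.2, 419.7 and 397 CPM in Young Late IZ, against 423, 426 and 397 CPM in Young Late Sham. ATP5MC1 had 566, 867 and 758 CPM in Young Late IZ, against 923, 592 and 666 CPM in Young Late Sham (0.01 ± 0.49).

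One day after an infarct at 14 days of age, 14 of the 31 genes fell and 1 rose in Old Early IZ, where 32.9% of all genes were called, 14.0% lower and 18.9% higher. The members' median change was −0.93, against 0.00 over all genes. The falls covered 4 of 7 genes of complex III, 4 of 13 of complex IV and 6 of 11 of ATP synthase. COX6A2 had 218, 203 and 143 CPM in Old Early IZ, against 570.2, 651 and 439.9 CPM in Old Early Sham, and fell by 1.56 ± 0.54. COX7A1, the heart and skeletal muscle isoform of subunit 7A, had 184, 185 and 124 CPM in Old Early IZ, against 440.5, 556 and 371 CPM in Old Early Sham, and fell by 1.47 ± 0.45. UQCRC2 had 133, 229 and 155 CPM in Old Early IZ, against 420.2, 474 and 441 CPM in Old Early Sham, and fell by 1.37 ± 0.25 (adjusted p = 0.000119). These are the 3 largest falls among the called members.

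UQCRFS1 had 219.8, 313 and 232 CPM in Old Early IZ, against 569, 719 and 608 CPM in Old Early Sham, and fell by 1.31 ± 0.22. UQCRC1 fell by 1.22 ± 0.29, ATP5F1C, the gamma subunit of the central stalk, by 1.27 ± 0.24, and ATP5PB, subunit b of the peripheral stalk, by 1.18 ± 0.23. COX6A1 was the only member that rose, at 130.4, 76.9 and 101 CPM in Old Early IZ, against 54.1, 64.2 and 56.4 CPM in Old Early Sham (0.82 ± 0.29, adjusted p = 0.0284). It kept this call in 2 of 6 refits without 1 library, and with RNA integrity as a covariate the change was 0.56 and did not pass (edgeR, adjusted p = 0.132). CYC1 had 431, 335 and 277 CPM in Old Early IZ, against 613, 631 and 527 CPM in Old Early Sham, and did not pass (−0.76 ± 0.37), though the groups did not overlap. In all, 26 members lay wholly below sham, which held for 26.4% of all genes. The 15 calls became 24 without the BZ library that stood apart, with 23 lower. They became 6 without Old Early IZ replicate 3.

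The remaining core and inhibitory subunits of Old Early IZ mostly lay under sham. UQCRC1 had 406, 426 and 322 CPM in Old Early IZ, against 962, 919 and 802 CPM in Old Early Sham. ATP5F1A had 1198, 1375 and 872 CPM in Old Early IZ, against 2495, 2616 and 2000 CPM in Old Early Sham. ATP5IF1 had 190.3, 174 and 136 CPM in Old Early IZ, against 347, 349 and 296 CPM in Old Early Sham. These 3 fell with no overlap, as did COX5A and ATP5MC3 (−1.0 ± 0.30 and −0.97 ± 0.28). COX5A had 263, 334 and 226 CPM in Old Early IZ, against 556, 569 and 518 CPM in Old Early Sham. ATP5MC3 had 390.5, 429.9 and 301 CPM in Old Early IZ, against 742, 825 and 634 CPM in Old Early Sham. In other members the gap was small or absent. COX5B had 451, 399 and 279 CPM in Old Early IZ, against 744, 758 and 562 CPM in Old Early Sham, and did not pass (−0.87 ± 0.39). COX4I1 had 1095, 845 and 666 CPM in Old Early IZ, against 1536, 1357 and 1105 CPM in Old Early Sham, and did not pass (−0.62 ± 0.51). ATP5MC1 had 470.5, 289 and 258 CPM in Old Early IZ, against 594, 577 and 405 CPM in Old Early Sham, with replicate 1 inside the sham range (−0.63 ± 0.49). General isoforms were mixed. COX7A2 had 138, 114 and 86.1 CPM in Old Early IZ, against 161, 191 and 150.5 CPM in Old Early Sham (−0.57 ± 0.33). COX8A had 148, 97.2 and 105 CPM in Old Early IZ, against 96.6, 115 and 96.0 CPM in Old Early Sham (0.19 ± 0.30). COX7A2L had 53.0, 56.3 and 51.8 CPM in Old Early IZ, against 47.9, 50.5 and 47.9 CPM in Old Early Sham (0.14 ± 0.14). COX7A2 lay wholly below sham, COX8A overlapped it and COX7A2L lay wholly above it, and none of the 3 passed. COX4I2 had 23.9, 13.4 and 14.6 CPM in Old Early IZ, against 16.3, 16.4 and 15.3 CPM in Old Early Sham, with overlap (0.11 ± 0.47).

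One week after an infarct at 14 days of age, the fall was broad. In Old Late IZ 19 of the 31 genes fell and 1 rose, where 47.5% of all genes were called, 23.2% lower and 24.3% higher. The members' median was −1.19, against −0.04 over all genes. In complex III 6 of 7 fell, in complex IV 5 of 13 and in ATP synthase 8 of 11. In 25 members all 3 IZ libraries lay below all 3 sham libraries, which held for 32.2% of all genes. The count was 27, with 24 lower and 3 higher, without the BZ library that stood apart. The IZ libraries had RNA integrity numbers of 7.1, 7.6 and 7.2, against 8.4, 8.0 and 7.8 in Old Late Sham. With that number as a covariate 24 fell and 0 rose.

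UQCRC1 had 251, 221 and 176 CPM in Old Late IZ, against 923, 876 and 859 CPM in Old Late Sham, and fell by 2.04 ± 0.30 (adjusted p = 3.4e-06). COX6A2 had 134, 88.2 and 67.3 CPM in Old Late IZ, against 414, 347 and 431 CPM in Old Late Sham, and fell by 2.04 ± 0.54 (adjusted p = 0.00284). COX7A1 had 114, 88.0 and 83.6 CPM in Old Late IZ, against 340.1, 366 and 381 CPM in Old Late Sham, and fell by 1.93 ± 0.46. No IZ library came near a sham library in these 3 genes. UQCRC2 and UQCRFS1 fell by 1.90 ± 0.25 and 1.73 ± 0.22, and CYC1 by 1.35 ± 0.38. ATP5F1A had 1018, 971 and 781 CPM in Old Late IZ, against 2590, 2581 and 2412 CPM in Old Late Sham, and fell by 1.45 ± 0.26. Both c subunit genes of the table fell, ATP5MC1 by 1.20 ± 0.50 and ATP5MC3 by 1.33 ± 0.29, and the inhibitor ATP5IF1 fell by 0.97 ± 0.32. The ATP5MC1 call ended with DESeq2 size factors, with batch as a term, without mitochondrially encoded genes and with no count filter, at adjusted p-values of 0.0506 to 0.0655 by edgeR.

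The same gap ran through the other subunits of Old Late IZ. UQCRC2 had 106, 174 and 113 CPM in Old Late IZ, against 509, 516 and 438 CPM in Old Late Sham. CYC1 had 333, 176 and 178 CPM in Old Late IZ, against 627, 538 and 582 CPM in Old Late Sham. COX5A had 233, 172 and 137 CPM in Old Late IZ, against 427, 398 and 396 CPM in Old Late Sham. COX5A fell by 1.17 ± 0.30 and COX5B by 1.10 ± 0.39. COX5B had 352, 189 and 198 CPM in Old Late IZ, against 518, 538 and 529 CPM in Old Late Sham. ATP5MC1 had 289, 145 and 140.3 CPM in Old Late IZ, against 468, 411 and 439 CPM in Old Late Sham. ATP5MC3 had 351, 247 and 221 CPM in Old Late IZ, against 725, 683 and 656 CPM in Old Late Sham. In each of these the highest IZ library, replicate 1 in all but UQCRC2, lay below the lowest sham library. ATP5IF1 had 166, 105 and 102 CPM in Old Late IZ, against 244, 236 and 251 CPM in Old Late Sham. COX4I1 had 677, 349 and 365 CPM in Old Late IZ, against 1061, 1032 and 1075 CPM in Old Late Sham, and did not pass (−1.19 ± 0.51, adjusted p = 0.0572), though the groups did not overlap.

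COX6A1 was the 1 member that rose in Old Late IZ. It had 128, 71.3 and 82.5 CPM in Old Late IZ, against 44.3, 47.4 and 46.0 CPM in Old Late Sham, and rose by 1.03 ± 0.29 (adjusted p = 0.00416). With RNA integrity as a covariate its change was 0.69 and did not pass (edgeR, adjusted p = 0.057). COX7A2 and COX8A, the general isoforms of subunits 7A and 8, did not pass (−0.20 ± 0.33 and 0.18 ± 0.30). COX8A had 146, 69.9 and 77.4 CPM in Old Late IZ, against 90.9, 82.1 and 86.8 CPM in Old Late Sham, with overlap. COX4I2, the second isoform of subunit 4, had 32.9, 17.8 and 19.3 CPM in Old Late IZ, against 12.7, 11.3 and 12.8 CPM in Old Late Sham. All its IZ libraries lay above sham, but it did not pass (0.92 ± 0.47, adjusted p = 0.107).

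Neither COX7A2 nor COX7A2L passed. COX7A2 had 147, 83.0 and 77.2 CPM in Old Late IZ, against 111, 129 and 113 CPM in Old Late Sham, with sham inside the IZ range. COX7A2L had 52.3, 52.5 and 49.8 CPM in Old Late IZ, against 36.4, 42.6 and 43.7 CPM in Old Late Sham. Its IZ libraries all lay above sham, and its change was 0.33 ± 0.14 (adjusted p = 0.056).

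**Figure D2:**
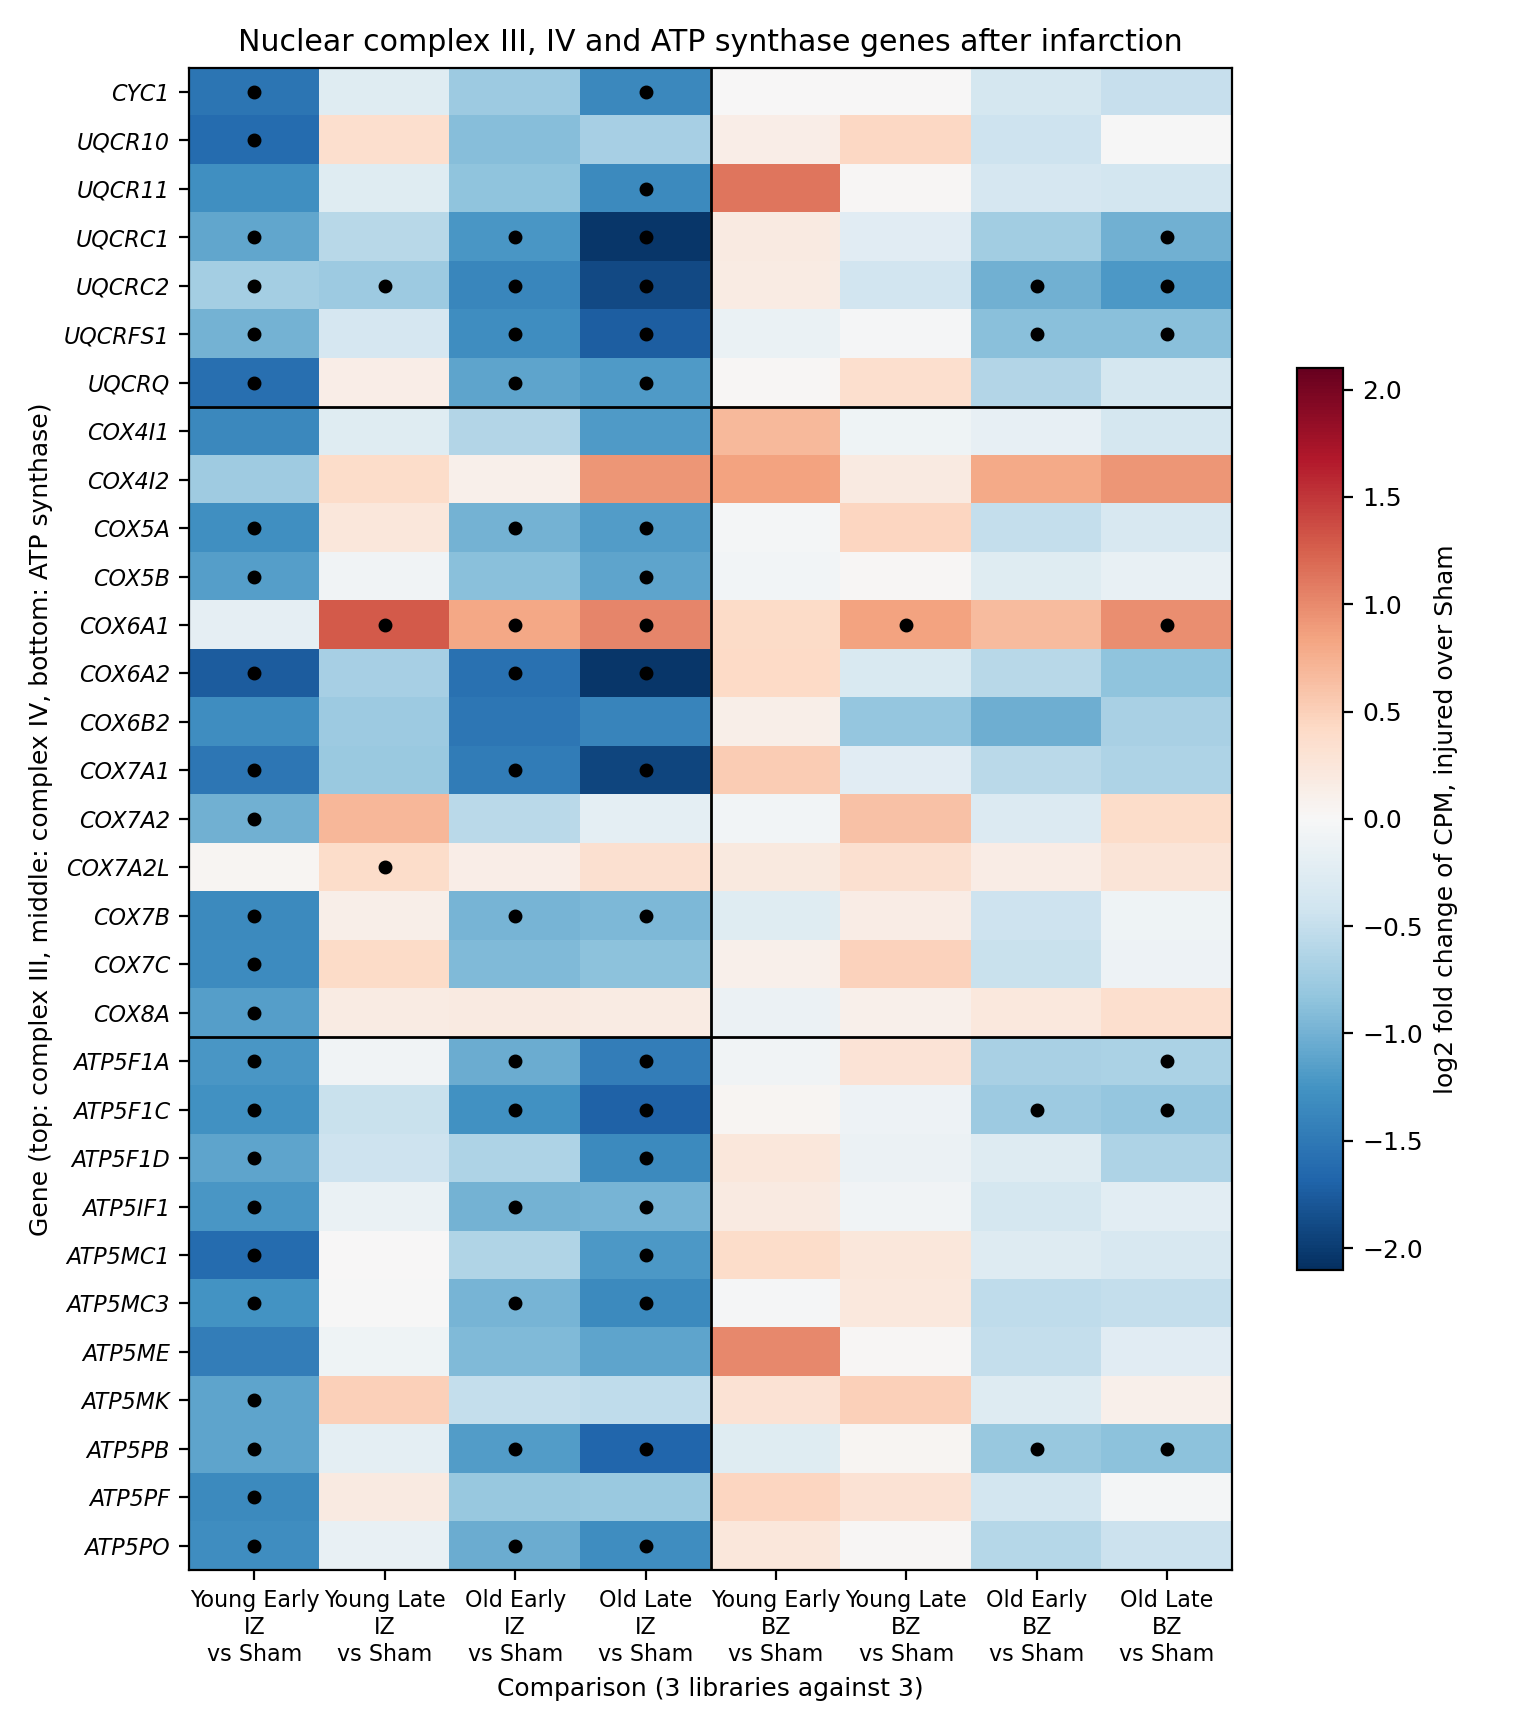
Log2 fold change of each of the 31 genes (rows, by complex) in IZ or BZ over Sham (columns), with a dot for an adjusted p below 0.05. Blue fills most of the Young Early, Old Early and Old Late IZ columns, with 24, 14 and 19 genes called lower, while the Young Late IZ column has 1, and COX6A1 is red in 3 of the 4 IZ columns.

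Cardiomyocyte genes fell in every infarct zone group. Of 14 listed cardiomyocyte markers 9 were in the table, and 7 fell in Young Early IZ, 5 in Young Late IZ, 7 in Old Early IZ and 8 in Old Late IZ. Their median changes were −1.73, −0.69, −1.49 and −1.90. In the same order 11.6%, 13.1%, 14.0% and 23.2% of all genes were called lower. In Young Late IZ only 1 of the 31 genes fell, at a median of −0.08. The summed marker level ranged from 30289 to 50666 CPM in Young Early IZ, against 105800 to 126136 CPM in Young Early Sham. In Young Late IZ it ranged from 61436 to 83033 CPM, against 81931 to 119079 CPM in Young Late Sham, so these groups overlapped. In Old Early IZ it ranged from 28244 to 47194 CPM, against 77072 to 85374 CPM in Old Early Sham, and in Old Late IZ from 23184 to 35854 CPM, against 85712 to 95464 CPM in Old Late Sham. None of the 9 was at 0 in any group. Macrophage markers rose in 3, 8, 4 and 7 of 8 genes in the same 4 comparisons, and fibroblast markers in 4, 6, 6 and 6 of 7. Either direction together, 26.4%, 30.4%, 32.9% and 47.5% of all genes were called there. Of 7 listed skeletal muscle markers only 2 were tested, and they summed to at most 4.331 CPM in every group. The part of these shifts in the changes of the 31 genes was not tested.

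Age at injury was compared directly as the difference between the Old and the Young response. In the infarct zone at 1 week (Late) 5 of the 31 genes had a lower response in Old than in Young hearts, where 3.53% of all genes differed in either direction and 2.25% were lower. The members' median difference was −1.09, against −0.04 over all genes, and 29 of the 31 differences were negative. The 5 are the core subunit UQCRC1 (−1.46 ± 0.41, adjusted p = 0.0444), the Rieske subunit UQCRFS1 (−1.37 ± 0.31, adjusted p = 0.0188), and 3 subunits of ATP synthase. These are ATP5PB (−1.45 ± 0.32, adjusted p = 0.0178), ATP5F1A (−1.37 ± 0.36, adjusted p = 0.0358) and ATP5F1C (−1.22 ± 0.33, adjusted p = 0.0392).

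ATP5PB had 199, 205 and 158 CPM in Old Late IZ, against 599, 590.1 and 599 CPM in Old Late Sham. It had 359, 477 and 543 CPM in Young Late IZ, against 580.1, 399 and 621 CPM in Young Late Sham. The Old libraries were thus far apart and the Young ones overlapped. UQCRFS1 had 168, 195 and 136 CPM in Old Late IZ, against 569, 555 and 532 CPM in Old Late Sham. In the Young hearts it had 338, 411 and 411 CPM in Young Late IZ, against 593, 369 and 530.4 CPM in Young Late Sham, again with overlap. UQCRC1 had 501, 735 and 653 CPM in Young Late IZ, against 1123, 779.6 and 915 CPM in Young Late Sham, with all IZ libraries below sham. ATP5F1C had 207, 209.5 and 157 CPM in Old Late IZ, against 588, 636 and 622 CPM in Old Late Sham. It had 364, 518 and 461 CPM in Young Late IZ, against 672, 519 and 662 CPM in Young Late Sham, a smaller gap.

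**Figure D3:**
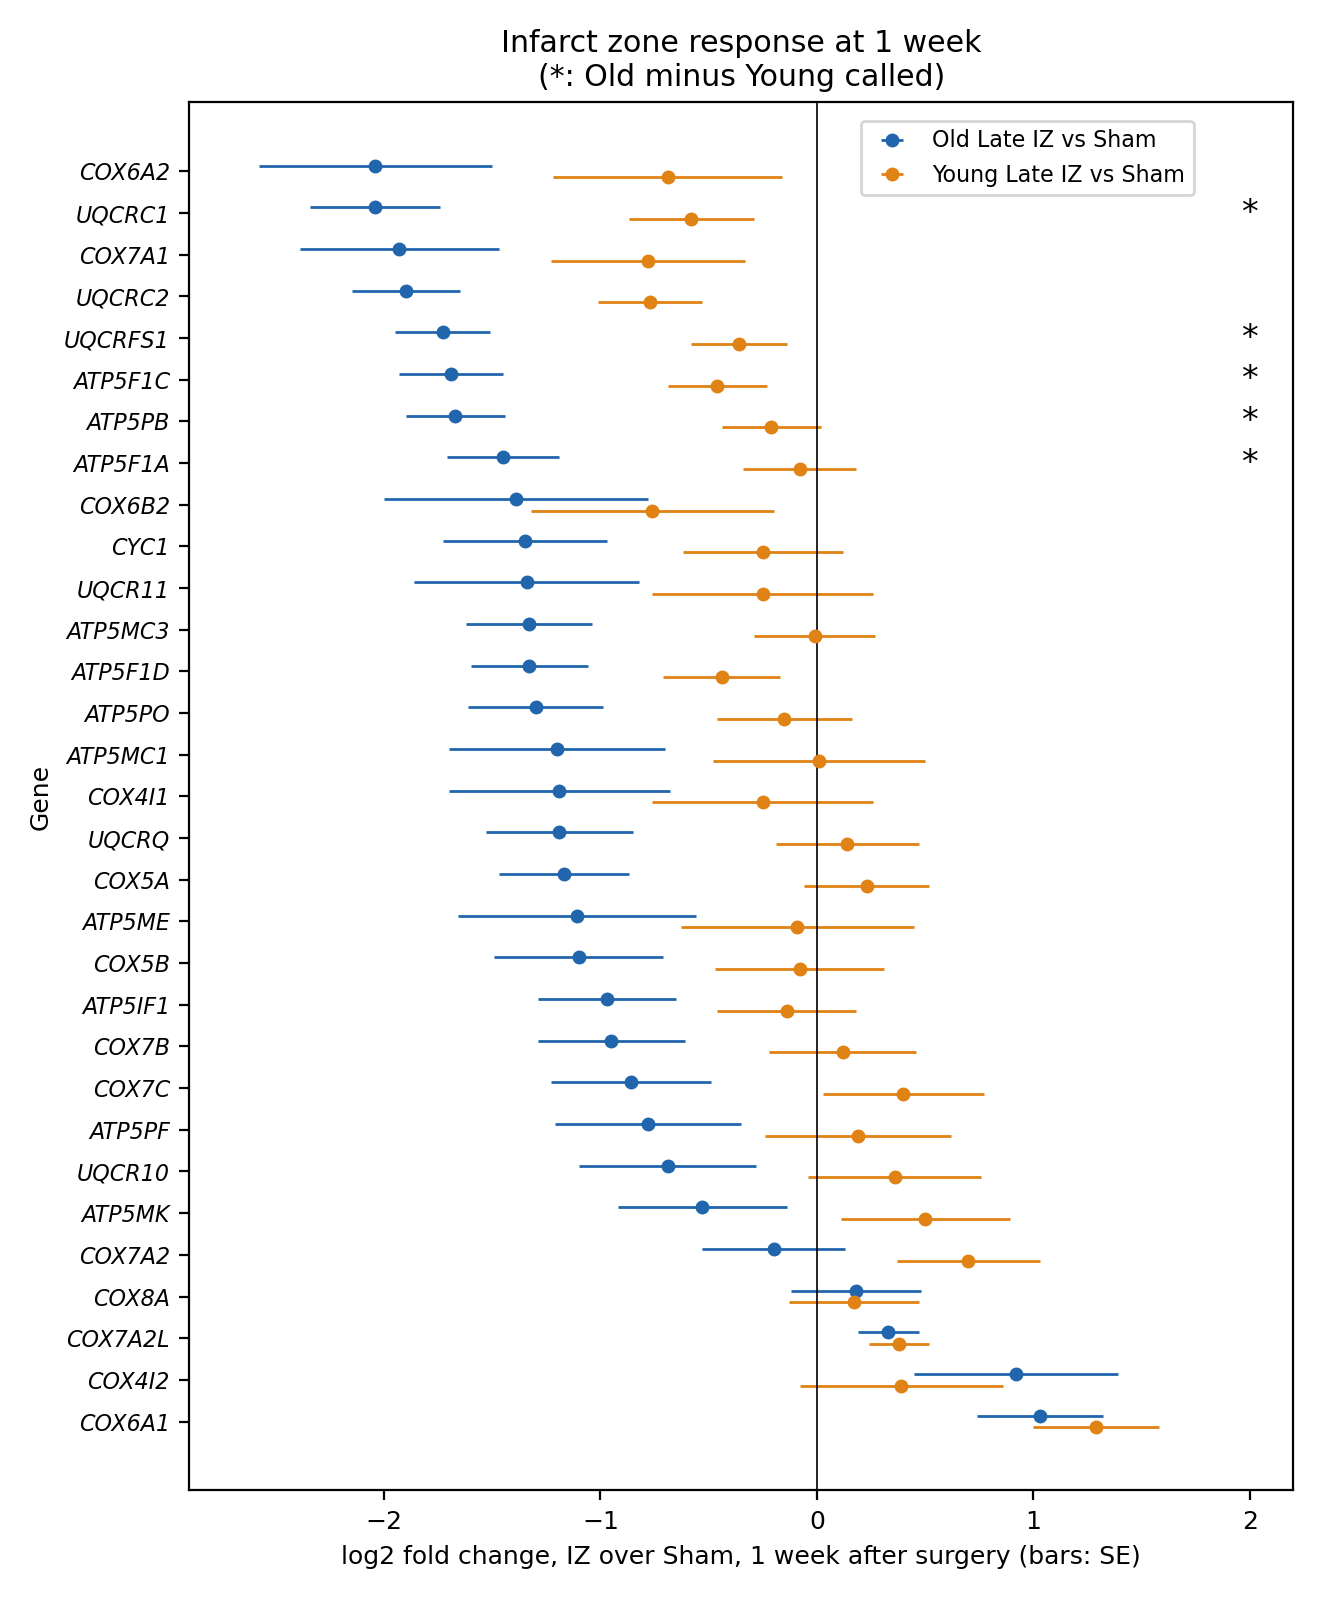
Log2 fold change of IZ over Sham ± SE 1 week after surgery for each of the 31 genes, in Old (blue) and Young (orange) hearts, with an asterisk where the difference between the responses was called. Most Old values lie left of the Young ones, with medians of −1.19 and −0.08, and 5 genes carry an asterisk.

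The calls of this difference changed with single libraries. The count was 0 without Old Late IZ replicate 1 or replicate 3, and also when Young Late IZ replicate 2 or replicate 3 or the second Young Late Sham library was left out. It was 2 or 3 without any 1 Old Late Sham library. The median stayed between −1.24 and −0.83 in all 12 of these refits. Without the BZ library that stood apart 11 genes were called, all lower, and the DESeq2 Wald test called 8. With batch as a term the count was 6, with RNA integrity as a covariate 7, and 11 with only the 4 groups of this contrast fitted. It was 3 with DESeq2 size factors, 3 without mitochondrially encoded genes and 2 with no count filter. UQCRC1 and ATP5F1C lost the call in each of these 3 refits, at adjusted p-values of 0.0508 to 0.0615 by edgeR, and ATP5F1A with no count filter (0.0572). All Old Late libraries form batch 3, so that term rests on the Young groups. The 9 cardiomyocyte markers had a median difference of −1.0 in the same contrast, with 0 of them called by edgeR. Pericyte and smooth muscle markers were higher in 4 of 10 genes, at a median of 0.84. Fibroblast markers had a median of 1.24 and macrophage markers one of −0.68, with 0 of 7 and 0 of 8 called by edgeR. The part of these markers was not tested. At 1 day the Old and Young infarct zone responses were called different in 0 members by edgeR, where 0.0344% of all genes differed. An unadjusted p under 0.05 was found for 2 of the 31, and the DESeq2 Wald test called 1 gene, higher.

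The time after injury was compared in the same way. In Young infarct zones the response at 7 days was higher than at 1 day in 10 of the 31 genes, where 12.4% of all genes differed and 6.15% were higher. The median difference was 1.14, against 0.03 over all genes, and 30 of the 31 were positive. The 10 hold UQCR10 (1.97 ± 0.58) and UQCRQ (1.72 ± 0.47) of complex III. Complex IV gave COX7C (1.73 ± 0.52), COX7A2 (1.71 ± 0.46), COX5A (1.52 ± 0.42), COX6A1 (1.48 ± 0.40), COX7B (1.47 ± 0.49) and COX8A (1.32 ± 0.43). ATP synthase gave ATP5MC3 (1.24 ± 0.40) and ATP5F1A (1.13 ± 0.36). Their adjusted p-values from edgeR ran from 0.0185 to 0.0456.

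COX7A2 had the lowest adjusted p of the 10. It had 229.7, 315 and 255 CPM in Young Late IZ, against 229, 126 and 135 CPM in Young Late Sham, and 173, 323 and 142 CPM in Young Early IZ, against 425, 467 and 393 CPM in Young Early Sham. The IZ libraries lay above sham at 7 days and below it at 1 day, and the sham level was itself lower at 7 days. UQCR10 had 254, 385 and 332 CPM in Young Late IZ, against 309, 210.2 and 238 CPM in Young Late Sham, with overlap. COX7C had 678, 973 and 872 CPM in Young Late IZ, against 826, 387 and 693 CPM in Young Late Sham. It had 430.2, 802 and 358 CPM in Young Early IZ, against 1261, 1395 and 1315 CPM in Young Early Sham, so that IZ levels overlapped between times while sham levels did not. UQCRC2 gave the lowest difference of the 31 (−0.07 ± 0.34).

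Other called genes overlapped sham at 7 days. UQCRQ had 320.4, 464 and 387 CPM in Young Late IZ, against 472, 261 and 331 CPM in Young Late Sham, and 186, 308 and 169.6 CPM in Young Early IZ, against 659, 683 and 641 CPM in Young Early Sham. COX5A had 428, 602 and 534 CPM in Young Late IZ, against 577, 295 and 464 CPM in Young Late Sham, and 296, 458 and 292 CPM in Young Early IZ, against 880.4, 922 and 755 CPM in Young Early Sham. In both, IZ overlapped sham at 7 days and lay below it at 1 day. COX7B, a small complex IV subunit, had 454, 686 and 632 CPM in Young Late IZ, against 620.3, 458 and 549 CPM in Young Late Sham, and 291, 595 and 236 CPM in Young Early IZ, against 937, 1029 and 884 CPM in Young Early Sham. COX8A had 212, 268 and 244 CPM in Young Late IZ, against 235, 227 and 181 CPM in Young Late Sham, and 105, 192 and 108 CPM in Young Early IZ, against 306, 305 and 286 CPM in Young Early Sham. ATP5MC3 had 705, 858 and 792 CPM in Young Late IZ, against 992, 576 and 808 CPM in Young Late Sham, and 472, 773 and 445 CPM in Young Early IZ, against 1208, 1642 and 1174 CPM in Young Early Sham. These 3 also overlapped at 7 days and not at 1 day. COX6A1, by contrast, lay above sham at 7 days and overlapped it at 1 day.

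The count of 10 became 18 without the BZ library that stood apart and 16 without Young Early IZ replicate 2. It was 0 without Young Early IZ replicate 1 or replicate 3, and also without Young Late Sham replicate 2. Young Late IZ replicate 2 left 2 calls when taken out. Leaving out any 1 Young Early Sham library, Young Late IZ replicate 1 or replicate 3, or the third Young Late Sham library gave 4 to 6. With RNA integrity as a covariate it was 0 at a median of 1.02. With no count filter ATP5F1A, ATP5MC3 and COX7B did not pass (edgeR, adjusted p = 0.0584, 0.0522 and 0.0515). Markers of several cell types moved in the same contrast, and their part was not tested. Of the cardiomyocyte markers 2 of 9 were higher and 0 lower (median 0.61), and of the macrophage markers 5 of 8 were higher and 0 lower (median 2.46). Pericyte and smooth muscle markers had 3 of 10 higher and 1 lower, fibroblast markers 2 of 7 higher and 1 lower, and endothelial markers 0 of 4 higher and 1 lower. In Old infarct zones the difference between the response at 7 days and that at 1 day passed the test for 0 of the 31 by edgeR, where 4.01% of all genes differed, and the median difference was −0.23. An unadjusted p under 0.05 was found for 0 of the 31, and the DESeq2 Wald test called 0.

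In the border zone the changes were smaller. In Young Early BZ 0 of the 31 were called by edgeR or by the DESeq2 Wald test, where 0.894% of all genes were, with 1 at an unadjusted p under 0.05. The median change was 0.18, and −0.55 without the library that stood apart. In Young Late BZ only COX6A1 was called, where 14.7% of all genes were called and 8.66% were called higher. It had 155, 186 and 134 CPM in Young Late BZ, against 86.1, 69.5 and 107 CPM in Young Late Sham, and rose by 0.85 ± 0.29 (adjusted p = 0.0439). This call held in 1 of 6 refits without 1 library, and ended with RNA integrity as a covariate and with DESeq2 size factors. Macrophage markers rose in 7 of 8 genes there, fibroblast markers in 5 of 7 and pericyte and smooth muscle markers in 4 of 10, with 0, 1 and 1 lower, and their part was not tested.

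In Old Early BZ 4 genes fell, where 21.2% of all genes were called and 7.73% were called lower. UQCRC2 had 261, 228 and 174 CPM in Old Early BZ, against 420.2, 474 and 441 CPM in Old Early Sham, and fell by 1.01 ± 0.24. UQCRFS1 had 436, 328 and 267 CPM in Old Early BZ, against 569, 719 and 608 CPM in Old Early Sham, and fell by 0.88 ± 0.22. ATP5PB had 501, 461 and 301 CPM in Old Early BZ, against 742, 715 and 724 CPM in Old Early Sham, and fell by 0.79 ± 0.23. The fourth, ATP5F1C, fell by 0.76 ± 0.24, and its call ended in a fit of these 6 libraries alone (edgeR, adjusted p = 0.0778). The BZ libraries spread widely, with summed levels of 16407, 10894 and 6591 CPM over the 31 genes, and cardiomyocyte markers summed to 31995 to 72234 CPM in them. Fibroblast markers rose in 6 of 7 genes, macrophage markers in 8 of 8 and pericyte and smooth muscle markers in 6 of 10, and their part was not tested. The count was 7 without Old Early BZ replicate 1 and 2 without replicate 3, and 7 without the library that stood apart, with 1 higher.

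In Old Late BZ 6 genes fell and 1 rose, where 38.2% of all genes were called, 18.7% lower and 19.5% higher. The members called in either direction are a smaller share than the 38.2% of all genes. The 6 lower are a share near the 18.7% of all genes. UQCRC2 had 153, 244 and 236 CPM in Old Late BZ, against 509, 516 and 438 CPM in Old Late Sham, and fell by 1.21 ± 0.24 (adjusted p = 0.000386). UQCRC1 had 324, 575 and 418 CPM in Old Late BZ, against 923, 876 and 859 CPM in Old Late Sham, and fell by 1.01 ± 0.29. UQCRFS1 had 221, 369.7 and 316 CPM in Old Late BZ, against 569, 555 and 532 CPM in Old Late Sham, and fell by 0.87 ± 0.22. ATP5PB, ATP5F1C and ATP5F1A fell by 0.86 ± 0.23, 0.82 ± 0.24 and 0.66 ± 0.26. The ATP5F1A call ended with DESeq2 size factors, without mitochondrially encoded genes and with no count filter, at adjusted p-values of 0.0561 to 0.0667 by edgeR. COX6A1 had 104, 88.4 and 78.3 CPM in Old Late BZ, against 44.3, 47.4 and 46.0 CPM in Old Late Sham, and rose by 0.98 ± 0.29. With RNA integrity as a covariate this was 0.62 and did not pass (edgeR, adjusted p = 0.125). Cardiomyocyte markers summed to 43716 to 68332 CPM in Old Late BZ, against 85712 to 95464 CPM in Old Late Sham. Fibroblast markers rose in 6 of 7 genes, macrophage markers in 7 of 8 and pericyte and smooth muscle markers in 7 of 10, with 0, 0 and 1 lower. The part of these markers was not tested. The count of 7 was 4 without Old Late BZ replicate 1, and 13 in a fit of these 6 libraries alone. No member was called by edgeR in the difference between the Old and the Young BZ response, where 0.199% of all genes were at the Early time and 0.977% at the Late time. Unadjusted p-values under 0.05 were found for 5 members at each time, and the DESeq2 Wald test called 1 at the Early time and 0 at the Late time. The difference between the Late and the Early BZ response was called in 0 members by edgeR and by the DESeq2 Wald test, with 0 at an unadjusted p under 0.05, where 0.234% of all genes were called in Young and 1.09% in Old hearts. Without Young Early BZ replicate 2 the edgeR count was 1 in the Early difference of ages and 3 in the Young difference of times.

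The complex IV isoforms were also read in each border zone library. COX6A2 had 574, 3139 and 456 CPM in Young Early BZ, 549.8, 435 and 451 CPM in Young Late BZ, 618, 339.7 and 142 CPM in Old Early BZ and 156, 303 and 203 CPM in Old Late BZ. COX7A1 had 468, 1820 and 331 CPM in Young Early BZ, 519.8, 353 and 356 CPM in Young Late BZ, 517, 279.6 and 124 CPM in Old Early BZ and 176, 313 and 207 CPM in Old Late BZ. Old Late BZ lay below Old Late Sham in all libraries of COX6A2 and in all of COX7A1. COX6A1 had 92.2, 283 and 115 CPM in Young Early BZ and 107, 88.5 and 80.4 CPM in Old Early BZ. COX7A2 had 305, 638 and 289 CPM in Young Early BZ, 228, 251 and 276 CPM in Young Late BZ, 198, 132 and 80.8 CPM in Old Early BZ and 137, 187 and 134 CPM in Old Late BZ. COX8A had 161, 474 and 185 CPM in Young Early BZ, 229, 236 and 229 CPM in Young Late BZ, 151, 117 and 89.6 CPM in Old Early BZ and 111, 125 and 95.7 CPM in Old Late BZ. In these general isoforms Old Late BZ lay wholly above Old Late Sham. Of the 31 genes 5 lay wholly above and 12 wholly below in that comparison, which held for 30.3% and 32.7% of all genes. COX7A2L had 58.3, 85.6 and 68.3 CPM in Young Early BZ, 56.7, 63.5 and 71.0 CPM in Young Late BZ, 56.3, 57.2 and 48.8 CPM in Old Early BZ and 49.8, 47.2 and 51.1 CPM in Old Late BZ. COX4I1 had 1995, 1652 and 1514 CPM in Young Late BZ, 1789, 1170 and 575 CPM in Old Early BZ and 673, 1060 and 714 CPM in Old Late BZ. COX4I2 had 19.2, 105 and 17.1 CPM in Young Early BZ, 24.3, 25.1 and 19.0 CPM in Young Late BZ, 44.6, 28.6 and 10.1 CPM in Old Early BZ and 25.3, 24.3 and 20.1 CPM in Old Late BZ. Young Early BZ replicate 2 was the highest Young Early BZ library in each of these 8 genes.

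Among the core subunits, CYC1 had 1037, 788 and 843 CPM in Young Late BZ, 667, 428 and 279 CPM in Old Early BZ and 319, 558 and 364 CPM in Old Late BZ. UQCRC1 had 1146, 2107 and 981 CPM in Young Early BZ, 911, 696 and 782 CPM in Young Late BZ and 813, 486 and 320.4 CPM in Old Early BZ. UQCRC2 had 287, 224 and 297 CPM in Young Late BZ, where it lay wholly below sham. UQCRFS1 had 602, 540.1 and 668 CPM in Young Early BZ and 549, 403 and 515 CPM in Young Late BZ, inside or close to the sham range. COX5A had 599.5, 1243 and 644 CPM in Young Early BZ, 623, 554 and 653 CPM in Young Late BZ, 559.8, 375 and 227 CPM in Old Early BZ and 248, 406 and 309.6 CPM in Old Late BZ. COX5B had 981, 2428 and 829 CPM in Young Early BZ, 1050, 901 and 758 CPM in Young Late BZ, 896, 571 and 254 CPM in Old Early BZ and 397, 604 and 415 CPM in Old Late BZ. Old Early BZ replicate 3 was the lowest library of its group in all of these complex III and complex IV genes. ATP5F1A had 2915, 4851 and 3020 CPM in Young Early BZ, 2696, 2074 and 2574 CPM in Young Late BZ, 2048, 1400 and 988 CPM in Old Early BZ and 1322, 1953 and 1535 CPM in Old Late BZ. ATP5IF1 had 384, 1027 and 372 CPM in Young Early BZ, 416, 378 and 389 CPM in Young Late BZ, 389, 246 and 129.5 CPM in Old Early BZ and 169, 269 and 191 CPM in Old Late BZ. ATP5MC1 had 743, 4808 and 868 CPM in Young Early BZ, 939.8, 831 and 811 CPM in Young Late BZ, 672, 394 and 245 CPM in Old Early BZ and 283, 461 and 297 CPM in Old Late BZ. Young Early BZ replicate 2 lay far over the others of its group in ATP5MC1. ATP5MC3 had 964, 1803 and 1166 CPM in Young Early BZ, 969, 804 and 993 CPM in Young Late BZ, 741, 459.6 and 309 CPM in Old Early BZ and 390.0, 607 and 458 CPM in Old Late BZ. Old Late BZ replicate 2 was the highest of its group in these 4 genes of ATP synthase.

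Within the same pigs, the infarct zone was set against the border zone with the pig as a block. Here adjusted p-values run over the 14386 genes of that fit. In Young Early hearts 28 of the 31 genes were lower in IZ than in BZ, where 10.2% of all genes were called and 6.43% were called lower. Their median was −1.25. CYC1 had 404, 765 and 369 CPM in Young Early IZ, against 829, 2807 and 823 CPM in Young Early BZ, where libraries with the same number come from the same pig. IZ was lower in each of the 3 pigs (−1.36 ± 0.21, adjusted p = 0.00895). COX7A2L, COX6A1 and the low COX6B2 did not pass (−0.15 ± 0.13, −0.45 ± 0.21 and −1.41 ± 0.44). Without Young Early BZ replicate 2, and so without that pig in the contrast, 22 genes were called at a median of −1.06. Without the block 5 were called, and in a fit of the 6 libraries alone 0. Cardiomyocyte markers were lower in 5 of 9 genes in this contrast, at a median of −1.20, and fibroblast markers were higher in 2 of 7. Of the 8 macrophage markers 0 were called by edgeR, and of the 10 pericyte and smooth muscle markers 1 was lower. Their part was not tested.

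In Old Late hearts 1 gene, UQCRC1, was lower in IZ than in BZ, where 1.27% of all genes were called and 1.08% were called lower. It had 251, 221 and 176 CPM in Old Late IZ, against 324, 575 and 418 CPM in Old Late BZ (−1.02 ± 0.22, adjusted p = 0.0473). By pig, IZ replicates 1, 2 and 3 pair with BZ replicates 2, 3 and 1, and IZ was lower in each pair. The median over the 31 was −0.85, and 30 values were negative. Of the cardiomyocyte markers 1 of 9 was lower, at a median of −0.88, and their part was not tested. The number of calls here turned on the fit: 26 without the Young Early BZ library that stood apart, 25 by the DESeq2 Wald test, 26 with these 6 libraries alone, 3 with RNA integrity as a covariate, and 0 without each of the 6 libraries, without the block, with DESeq2 size factors or with no count filter. It was also 0 when the pig of Old Late BZ replicate 3, whose labels conflict, was read from the other label. In Old Early and Young Late hearts 0 of the 31 and 0.0% of all genes were called by edgeR, and the DESeq2 Wald test also called 0 of the 31. Unadjusted p-values under 0.05 were found for 5 and 0 of them, and the medians were −0.38 and −0.20.

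The balance between isoforms of the same subunit was read as a log2 ratio of counts per annotated gene length within each library. It was tested with an exact two-sided permutation test of the libraries within the 4 strata of age and time, and p-values were adjusted over 9 such tests. COX6A2 over COX6A1, the muscle over the general isoform, was 2.06, 2.86 and 1.63 in Young Early IZ, against 3.74, 3.71 and 4.33 in Young Early Sham. It was 0.92, 1.15 and 0.55 in Old Late IZ, against 4.07, 3.72 and 4.07 in Old Late Sham. In all 4 strata every IZ library lay below every sham library. The mean difference was −2.29 (p = 1.25e-05, adjusted p = 5.63e-05, n = 12 against 12), and this p is the smallest the permutations can give. The differences were −1.75, −1.99, −2.35 and −3.08 at 3, 9, 15 and 21 days of age. In BZ the mean difference was −1.21 (permutation test, adjusted p = 0.000169), without overlap in 3 of the 4 strata.

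COX7A1 over COX7A2, the same pair for subunit 7A, was −2.19, −2.0 and −1.91 in Young Late IZ, against −0.79, −0.07 and −0.64 in Young Late Sham. It was −2.46, −2.01 and −1.98 in Old Late IZ, against −0.48, −0.59 and −0.34 in Old Late Sham. The ratio was lower in IZ in all 4 strata with no overlap, by a mean of −1.15 (permutation test, adjusted p = 5.63e-05), and in BZ by −0.52 (adjusted p = 0.0172), with 1 of the 4 strata higher. COX4I2 over COX4I1 was −4.15, −4.08 and −4.03 in Old Late IZ, against −6.17, −6.29 and −6.17 in Old Late Sham, the widest gap of the 4 strata. The mean difference was 1.05 in IZ and 0.69 in BZ (permutation test, adjusted p = 0.000112 and 0.000382), higher in all 4 strata in both. COX4I2 was not called by itself in any comparison with sham. Between ages in sham hearts the Old minus Young differences were 0.26, 0.48 and 0.30 for the 3 ratios, in the order above, and did not pass (permutation test within 2 strata, adjusted p = 0.135, 0.0579 and 0.118). The smallest p of that design is 0.005.

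**Figure D4:**
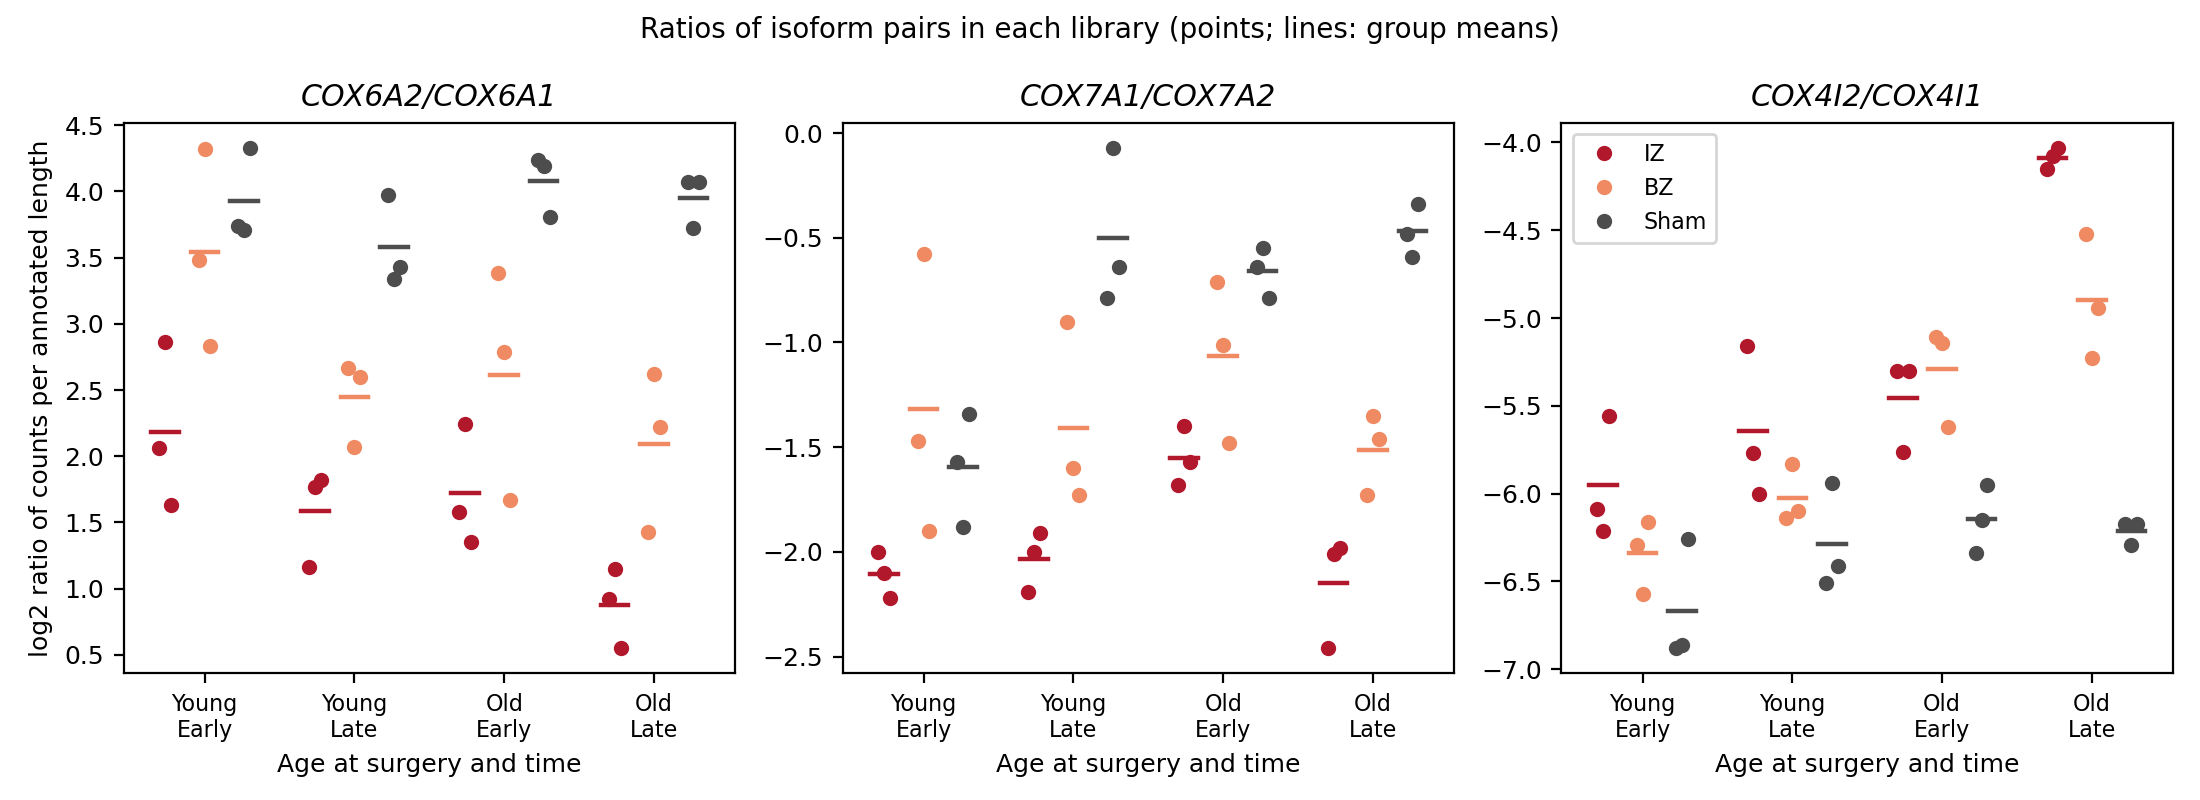
Log2 ratio of counts per annotated length for 3 isoform pairs in each library (points; lines are group means), by tissue within each age at surgery and time. IZ libraries lie below sham in both muscle over general pairs at every age and time, with mean differences of −2.29 and −1.15, and above sham on average for COX4I2 over COX4I1.

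The general isoforms are known from most cell types and COX4I2 from vascular mural cells, whose markers were counted in the same comparisons. Pericyte and smooth muscle markers, 10 genes, rose in 1, 5, 6 and 7 cases in Young Early, Young Late, Old Early and Old Late IZ, with 1, 1, 0 and 1 lower. Of all genes 26.4%, 30.4%, 32.9% and 47.5% were called there in either direction. The median changes of these markers were 0.06, 0.50, 0.77 and 1.44 in the same order. COX4I2 over COX4I1 was higher by 0.71, 0.65, 0.69 and 2.13. In Young Early IZ the changes of COX4I2 and COX4I1 were both negative, that of COX4I1 the more so, and neither passed. The sum of the 10 markers ranged from 2091 to 3127 CPM in Old Late IZ, against 546.9 to 636.4 CPM in Old Late Sham. The part of these cells in the ratios was not tested. The exons of 13 of the 31 genes overlap those of another gene. In 3 of them, ATP5MC3, UQCRC1 and COX6A1, the other gene lies on the same strand. ATP5MC3 shares bases with ATF2, a transcription factor gene, which fell in the same 3 IZ comparisons as ATP5MC3, by 1.26 ± 0.33 in Young Early, 0.85 ± 0.33 in Old Early and 1.14 ± 0.33 in Old Late IZ (edgeR, adjusted p = 0.00655, 0.0482 and 0.00585). The gene without a symbol that overlaps UQCRC1 rose by 0.97 ± 0.32 in Old Late IZ (edgeR, adjusted p = 0.0129), where UQCRC1 fell. COX6A1 shares bases with GATC, which did not pass in any comparison of IZ or BZ with sham (changes of −0.33 to 0.21). The values of ATP5MC3, UQCRC1 and COX6A1 are uncertain to the extent that such reads were shared, which was not tested. COX6A2 overlaps ITGAM, a leukocyte integrin gene on the opposite strand, which had 4 to 2408 counts per library and log2 changes of 1.95 to 2.94 in the 4 IZ comparisons, and COX7A1 overlaps CAPNS1 on the opposite strand. Whether the authors counted by strand is not given in the sources used here, so shared reads are possible. Annotated lengths differ widely, 4893 bases for COX6A1 and 2724 for COX6A2, so the ratios are read between groups and not as absolute amounts. In the file's coordinates, whose build is not named (13529 of 13707 shared symbols overlap the same gene of RefSeq Sscrofa11.1), COX6A1 lies on chromosome 14 (40408593 to 40423624), COX6A2 on chromosome 3 (17113357 to 17135104) and COX7A1 on chromosome 6 (45517229 to 45520721).

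Sham hearts were compared between ages, with 11 of the 31 genes called at the Early time, 2 at the Late time, 3 between the Young ages and 0 between the Old ages. At the Early time 11 of the 31 genes were lower in Old Sham (15 days of age) than in Young Sham (3 days), and 0 were higher, where 30.2% of all genes were called and 13.2% were called lower. The members' median was −0.84, against 0.03 over all genes. COX8A had 96.6, 115 and 96.0 CPM in Old Early Sham, against 306, 305 and 286 CPM in Young Early Sham, and was lower by a log2 change of −1.55 ± 0.31 (adjusted p = 0.00196). ATP5MC1 had 594, 577 and 405 CPM in Old Early Sham, against 1589, 1873 and 1437 CPM in Young Early Sham (−1.64 ± 0.50). COX7A2 had 161, 191 and 150.5 CPM in Old Early Sham, against 425, 467 and 393 CPM in Young Early Sham (−1.35 ± 0.33). These are the 3 largest falls, and none of the groups overlapped.

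CYC1 and COX6A1 were also lower (−1.33 ± 0.38 and −1.08 ± 0.29). By contrast UQCRC2, UQCRFS1 and ATP5PB did not pass (0.42 ± 0.24, −0.08 ± 0.22 and 0.08 ± 0.23), and UQCRC2 had 420.2, 474 and 441 CPM in Old Early Sham, against 306, 427 and 268 CPM in Young Early Sham. Of the 9 cardiomyocyte markers 2 were higher and 1 was lower in this comparison. All Young Early libraries are batch 1 and all Old Early libraries batch 2. With batch as a term, which only the Young Late groups can inform, 5 of the 31 were lower at a median of −1.18. With RNA integrity as a covariate 2 were lower, and without the BZ library that stood apart 22. The count was 3 to 7 without any 1 of Old Early Sham replicates 1 to 3 or Young Early Sham replicates 1 and 2.

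At the Late time 2 genes were lower in Old Sham (21 days) than in Young Sham (9 days), where 10.4% of all genes were called and 3.75% were called lower. These 2 of the 31 are a smaller share than the 10.4% and a larger one than the 3.75%. COX8A had 90.9, 82.1 and 86.8 CPM in Old Late Sham, against 235, 227 and 181 CPM in Young Late Sham (−1.31 ± 0.31, adjusted p = 0.0104). COX6A1 had 44.3, 47.4 and 46.0 CPM in Old Late Sham, against 86.1, 69.5 and 107 CPM in Young Late Sham (−0.93 ± 0.29, adjusted p = 0.0369). Both genes did not overlap between the groups. All Old Late libraries are batch 3, so age and batch cannot be told apart here, and with RNA integrity as a covariate 0 genes were called. Leaving out Old Late Sham replicate 2 gave 0 calls, the second Young Late Sham library 2, and each of the other 4 libraries 1.

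Between 3 and 9 days of age 3 genes were lower in Young Late Sham than in Young Early Sham, where 9.18% of all genes were called and 4.65% were called lower. These 3 of the 31 are a share near the 9.18% and a larger one than the 4.65%. The 3 are COX7A2 (−1.39 ± 0.33), COX5A (−0.94 ± 0.30) and ATP5F1A (−0.91 ± 0.26), with adjusted p-values of 0.0131, 0.0437 and 0.0288 from edgeR. COX5A had 577, 295 and 464 CPM in Young Late Sham, against 880.4, 922 and 755 CPM in Young Early Sham, with no overlap. Macrophage markers were lower in 5 of 8 genes in this comparison, and their part in it was not tested. With RNA integrity as a covariate 1 gene was called, as COX5A and ATP5F1A did not pass (edgeR, adjusted p = 0.0922 and 0.0599), and COX5A did not pass with no count filter (0.0538). The count was 10 without the BZ library that stood apart, 7 without Young Late Sham replicate 1, 0 without Young Late Sham replicate 2 or 3, and 1 to 2 without any 1 Young Early Sham library. Between 15 and 21 days 0 of the 31 were called by edgeR and 0 by the DESeq2 Wald test, where 0.0275% of all genes were, with 0 at an unadjusted p under 0.05. The median was −0.34.

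**Figure D5:**
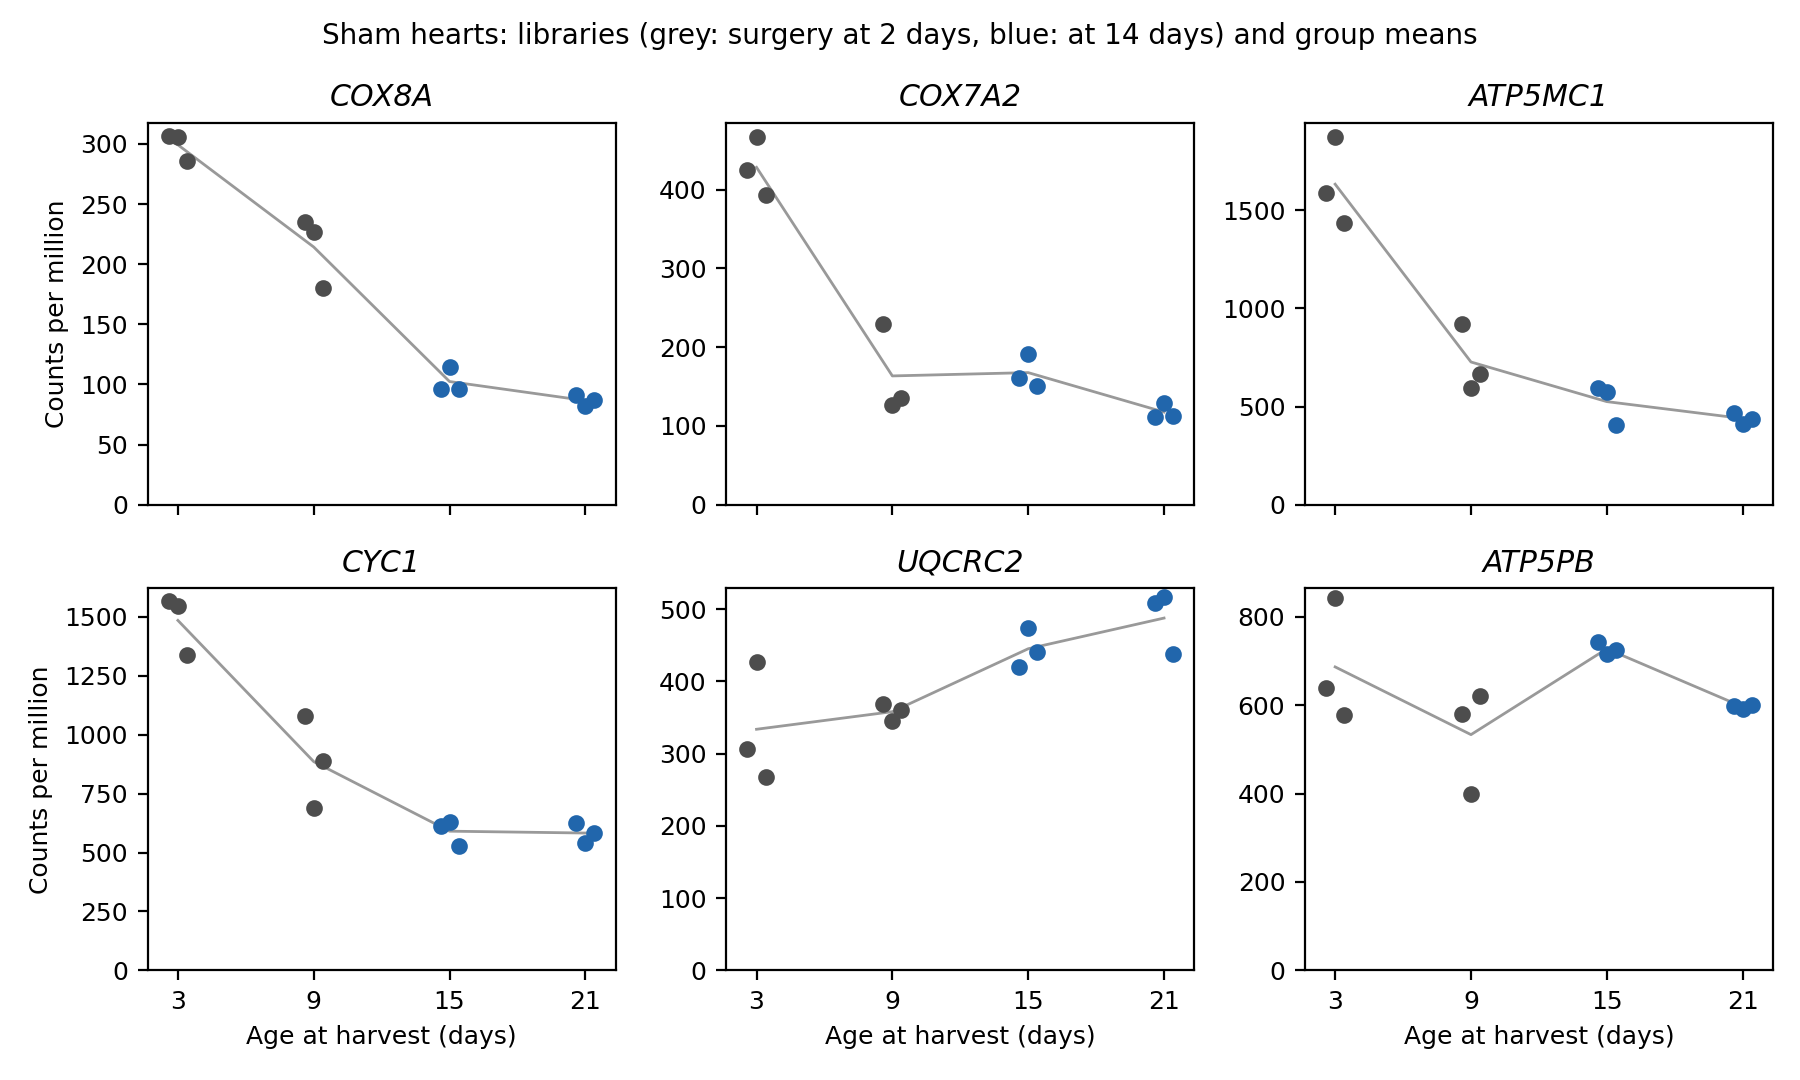
Level in CPM of 6 genes in each sham library (points) by age at harvest, with lines through the group means of 3 libraries. COX8A, COX7A2, ATP5MC1 and CYC1 are highest at 3 days, while UQCRC2 and ATP5PB overlap between 3 and 15 days. Library preparation batch changes with age.

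The partners of these subunits were counted in the same comparisons. Of 6 mitochondrially encoded partners (CYTB of complex III, COX1, COX2 and COX3 of complex IV, ATP6 and ATP8 of ATP synthase) 0 fell in Young Early IZ and in Young Late IZ, 2 in Old Early IZ and 5 in Old Late IZ. Their medians were −0.73, −0.38, −1.07 and −1.71. In the same order 11.6%, 13.1%, 14.0% and 23.2% of all genes were called lower. The difference between the Old and the Young Late IZ response was called in 0 of the 6 by edgeR, at a median of −1.22. COX1, the catalytic subunit of complex IV, fell by 1.78 ± 0.36 in Old Late IZ and CYTB, cytochrome b, by 1.82 ± 0.38. These transcripts summed to 46668 to 59243 CPM in Old Late IZ, against 167472 to 178476 CPM in Old Late Sham.

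Of 40 listed assembly factors and electron carriers 32 were tested. In Young Early IZ 13 fell, in Young Late IZ 3, in Old Early IZ 10 and in Old Late IZ 21, with 1 higher in Old Late IZ. Of all genes 11.6%, 13.1%, 14.0% and 23.2% were called lower in the same comparisons. NDUFA4, a small protein of complex IV, fell by 1.28 ± 0.30 in Young Early IZ, 1.47 ± 0.30 in Old Early IZ and 1.55 ± 0.30 in Old Late IZ. TACO1, needed to translate COX1, fell by 1.69 ± 0.25 and CYCS, cytochrome c, by 1.66 ± 0.36 in Old Late IZ. The Late IZ response was lower in Old than in Young hearts for CYCS (−1.86 ± 0.50), TACO1 (−1.24 ± 0.34), COX15, which makes haem a (−1.0 ± 0.24), and TMEM70, which helps assemble ATP synthase (−0.96 ± 0.26). CEP89 was the gene that rose in Old Late IZ, by 0.79 ± 0.20.

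Of 14 regulators of mitochondrial genes 10 fell in Old Late IZ and 0 rose, where 23.2% of all genes were called lower and 24.3% higher. PPARGC1A, the coactivator PGC-1 alpha, fell by 2.81 ± 0.30 and the nuclear receptor ESRRA by 1.94 ± 0.21. In Young Late IZ 5 fell, PPARGC1A by 0.78 ± 0.29, where 13.1% of all genes were called lower. The Late IZ response was lower in Old than in Young hearts for PPARGC1A (−2.03 ± 0.41) and ESRRA (−1.24 ± 0.29). It was lower in 2.25% of all genes. In Young Early IZ 3 fell and 3 rose, among them PPRC1, a relative of PGC-1 alpha (1.16 ± 0.26). Of all genes 26.4% were called there and 11.6% were called lower. In Old Early IZ 5 fell and PPRC1 rose by 1.57 ± 0.26, where 14.0% of all genes were called lower and 18.9% higher.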

How the data were processed

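RNA of 36 pig heart samples was sequenced as polyadenylated, stranded paired-end libraries, per the labels' protocols. The deposited values are raw read counts per gene, 1 column per sample. The submitters' processing notes name bcl2fastq 2.19.0.316, Trimmomatic 0.36, STAR and featureCounts of Subread 1.5.1. The genome build, the annotation and the strand setting of the counting are not given in the sources used here. Gene positions in the table overlap the same-named gene of RefSeq Sscrofa11.1 for 98.7% of 13707 shared symbols.

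Counts were scaled by TMM, and genes were kept by filterByExpr (minimum count 10, minimum total 15). Group means over all 36 libraries were fitted with edgeR 4.0.16 (R 4.3.3) by robust quasi-likelihood, with 24 residual degrees of freedom and 14537 genes. IZ and BZ of the same pigs were compared over 24 libraries with the pig as a block, with 8 residual degrees of freedom and 14386 genes. The pairing comes from the animals in the labels. The deviations of paired libraries from their group means correlated at 0.47 to 0.76 in the Old Early, Old Late and Young Early pairs and at −0.32, −0.07 and −0.08 in the Young Late pairs (9 of 12 pairs over 0.1, across 14537 genes). For 1 Old Late BZ library the title and the individual label name different pigs, and the title was used.

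Adjusted p-values are Benjamini-Hochberg values over all genes tested, with a threshold of 0.05. Isoform ratios used counts per union exon length with a pseudocount of 0.5 counts, and exact stratified permutation tests. Calls were also counted with DESeq2 1.42.0, its size factors in edgeR, no count filter, mitochondrial genes left out, RNA integrity or batch as a term, no pig block, the compared groups alone, and each library left out. Single libraries limit precision, since each group has 3 animals.

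Library preparation batch is that of the labels: Young Early is all batch 1, Old Early all batch 2, Old Late all batch 3 and Young Late mixes 1 and 2. The 31 genes and the other gene lists were chosen with earlier results of these data known. All members may be named, and values by library are given for the most changed called genes, the isoform pairs and the core, inhibitory and c subunits. Promoter and protein sequences were not used here. Figures were drawn with matplotlib 3.10.9.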

Additional observations from a re-analysis of the deposited data

Results flagged for a closer look

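The response to infarction differed between ages for 5 genes and between times for 10, by the test of the difference itself (edgeR, adjusted p under 0.05). Of all genes 3.53% and 12.4% differed in these 2 contrasts. Without single libraries the counts ranged from 0 to 7 and from 0 to 16. With RNA integrity as a covariate they were 7 and 0. In the infarct zone 1 week after surgery the Old response minus the Young response was −1.46 for UQCRC1, −1.45 for ATP5PB, −1.37 for UQCRFS1, −1.37 for ATP5F1A and −1.22 for ATP5F1C.

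In the Young infarct zone the response at 7 days minus that at 1 day was 1.97 for UQCR10, 1.73 for COX7C, 1.72 for UQCRQ, 1.71 for COX7A2, 1.52 for COX5A, 1.48 for COX6A1, 1.47 for COX7B, 1.32 for COX8A, 1.24 for ATP5MC3 and 1.13 for ATP5F1A. The Old minus Young and the Late minus Early differences share the Young Late IZ and Young Late Sham libraries. ATP5F1A is in both lists. Groups have 3 libraries, so no single library was tested as an outlier.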

How the results depend on the processing

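The 134 member calls were refitted 1937 times under the alternatives, of which 1539 kept the call, 398 lost it and 0 reversed. DESeq2's Wald test kept all 134. The isoform ratios kept direction in every alternative run, and the call with a pseudocount of 5 counts. Without single libraries only the difference of the ratios was computed, with no p-value. Counts of called members moved as follows, and where nothing is said of the construction the cause was not tested. Without Young Early BZ replicate 2 in the shared spread, an alternative chosen after seeing the data, counts were 24 in Old Early IZ, 7 in Old Early BZ, 26 in Old Late IZ against BZ, 2 in the Early and 11 in the Late difference of ages in IZ, 18 in the Young difference of times in IZ, and 22, 4 and 10 in the Early, Late and Young comparisons of sham. The compared groups alone gave 24 in Old Early IZ, 13 in Old Late BZ, 0 in Young Early and 26 in Old Late IZ against BZ, 1, 11 and 18 in the 3 differences in IZ in the same order, and 24, 14, 15 and 4 in the Early, Late, Young and Old comparisons of sham. DESeq2's Wald test gave 25 in Old Late IZ against BZ, 1 in the Early and 8 in the Late difference of ages in IZ, 1 in the Early difference in BZ and 7 in the Young sham comparison.

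With RNA integrity as a covariate, counts were 0 in Young Late BZ, 3 in Old Late IZ against BZ, 0 in the Young difference of times, and 2, 0 and 1 in the Early, Late and Young sham comparisons. With batch as a term the Early sham count was 5, and no such term could be fitted in the Late and Old sham comparisons. The Late difference of ages in IZ was 3 with DESeq2 size factors, 2 with no count filter and 3 without mitochondrially encoded genes. Old Late IZ against BZ was 0 with DESeq2 size factors, with no count filter and with the pig of the other label, and Young Late BZ was 0 with DESeq2 size factors. Without the replicate block, that is the pig, the paired counts were 5 in Young Early and 0 in Old Late hearts, against 28 and 1 with it.

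Leaving out each library in turn leaves 2 in a group. Counts then ranged from 13 to 27 in Young Early IZ, 1 to 4 in Young Late IZ, 6 to 15 in Old Early IZ, 16 to 23 in Old Late IZ, 0 to 1 in Young Late BZ, 2 to 7 in Old Early BZ, 4 to 7 in Old Late BZ, 22 to 25 in Young Early IZ against BZ and 0 to 0 in Old Late IZ against BZ. They ranged from 0 to 1 in the Early and 0 to 7 in the Late difference of ages in IZ, 0 to 1 in the Early difference in BZ, 0 to 16 in the Young difference of times in IZ and 0 to 3 in BZ, and 3 to 9, 0 to 2 and 0 to 7 in the Early, Late and Young sham comparisons.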

Other observations

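Regulators and assembly factors of these complexes were also counted in Old Late BZ, where 38.2% of all genes were called and 18.7% were called lower, and in Early sham hearts, where 30.2% were called and 13.2% were called lower in Old Sham. In Old Late BZ 10 of 14 regulators fell, among them ESRRG, an estrogen-related receptor, by 2.22 ± 0.44, PPARGC1A by 1.80 ± 0.29 and TFAM, which packages and transcribes mitochondrial DNA, by 1.24 ± 0.24 (edgeR, called over all genes). Of 32 assembly factors 13 fell there, among them LRPPRC, which stabilises mitochondrial mRNA, by 1.17 ± 0.22, and CEP89 rose by 0.66 ± 0.20. In either direction the 14 calls among these 32 are a share near that of all genes. The 13 lower are a larger share than the 18.7% of all genes. The 1 higher is a smaller share than the 19.5% of all genes called higher. In Early sham hearts 5 of 14 regulators were higher in Old than in Young Sham, with ESRRG at 2.03 ± 0.44, while 8 of 32 assembly factors were lower and 2 higher, with BCS1L, which inserts the Rieske subunit into complex III, at −1.07 ± 0.31. In either direction the calls among the 14 and among the 32 are shares near the 30.2% of all genes. The 8 lower are a larger share than the 13.2% of all genes. All Young Early libraries are batch 1 and all Old Early libraries batch 2, and these counts come from the fit without batch as a term.

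In Young Early hearts the mitochondrially encoded partners had a median change of 0.21 between IZ and BZ of the same pigs, with 0 of 6 called by edgeR, where the 31 nuclear genes had a median of −1.25. Rows on the mitochondrial chromosome took 22.3%, 40.8% and 22.6% of the counts in Young Early IZ replicates 1, 2 and 3. In Young Early BZ they took 26.3%, 10.1% and 29.9%, in the same order of pigs. This share was higher in IZ only in replicate 2, the pig whose BZ library stood apart. The difference between the medians of 0.21 and −1.25 was not tested.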
